A study of Mus musculus with 6 samples.

Results

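The 7 genes of the inflammasome and of the NOD pathway studied here were read in 6 mouse tumor samples. They were taken by name, namely Nlrp3, Pycard, Casp1, Nod1, Nod2, Card9 and Ripk2, and all 7 were among the 750 endogenous genes of the panel. The tumors had been raised by injecting cells of BNL-MEA, a mouse liver cancer line, below the liver capsule (left lobe) of BALB/c males that were 6 to 7 weeks old. Before injection, the cells had received either an empty plasmid or one encoding PD-L1, which binds the inhibitory receptor PD-1 on T cells, and G418 had been used to select stable clones. Total RNA of tumor tissue was measured on a NanoString nCounter panel, which counts barcoded probes on single RNA molecules, in 3 samples labelled PD-L1 and 3 labelled empty plasmid. It is not stated in the labels that each sample is a different mouse, so p-values measure the spread between samples, which may not be the spread between mice. Clone and plasmid cannot be told apart. One label field of the empty plasmid samples also mentions clones expressing PD-L1, and groups were therefore taken from the titles.

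Inflammasomes are cytosolic complexes that turn signs of infection or damage into interleukin-1 release. NLRP3 is a sensor, the adaptor ASC, encoded by Pycard, joins it to caspase-1, and caspase-1, encoded by Casp1, cuts the precursors of IL-1β and IL-18 and the pore-forming protein gasdermin D. NOD1 and NOD2 sense fragments of bacterial peptidoglycan and act through the kinase RIPK2 on NF-κB and MAP kinases. CARD9 is an adaptor of myeloid cells that carries signals of C-type lectin receptors to BCL10 and MALT1, and it also takes part in NOD2 signalling. In liver, these genes are best known from macrophages and other myeloid cells, while NOD1 is expressed in many cell types, epithelial cells among them.

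The promoters of the sensor, the adaptor and the protease of the NLRP3 inflammasome are shown because these genes encode the parts of one complex. Each sequence runs 5′ to 3′ on the gene's strand, from 250 bases before to 50 after a start site, from RefSeq on GRCm38.p6. Capitals mark GAGGAA or its reverse complement, the core that the myeloid factor PU.1 prefers.
Nlrp3 (chr11:59542436-59542735, plus strand): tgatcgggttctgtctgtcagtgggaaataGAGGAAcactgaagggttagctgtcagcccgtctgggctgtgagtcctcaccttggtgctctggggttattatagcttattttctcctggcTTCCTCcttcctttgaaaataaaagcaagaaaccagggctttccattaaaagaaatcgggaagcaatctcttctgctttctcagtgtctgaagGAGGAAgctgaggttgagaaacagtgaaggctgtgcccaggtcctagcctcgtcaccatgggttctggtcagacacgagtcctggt
Pycard (chr7:127993818-127994117, minus strand): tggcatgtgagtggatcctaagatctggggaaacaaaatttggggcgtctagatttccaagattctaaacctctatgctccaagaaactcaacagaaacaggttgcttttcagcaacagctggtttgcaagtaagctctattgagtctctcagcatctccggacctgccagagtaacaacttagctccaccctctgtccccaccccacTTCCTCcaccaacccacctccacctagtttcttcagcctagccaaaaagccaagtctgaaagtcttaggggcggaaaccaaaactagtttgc
Casp1 (chr9:5298267-5298566, plus strand): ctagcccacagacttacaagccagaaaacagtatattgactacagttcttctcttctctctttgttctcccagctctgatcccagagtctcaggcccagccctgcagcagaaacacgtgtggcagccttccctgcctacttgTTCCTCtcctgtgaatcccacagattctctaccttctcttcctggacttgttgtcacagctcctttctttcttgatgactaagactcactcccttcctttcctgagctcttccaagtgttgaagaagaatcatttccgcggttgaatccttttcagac
The Nlrp3 window held 3 matches, and the windows of Pycard and Casp1 held 1 each. The other Nlrp3 window in the table held 0, as did the windows of Nod1, Nod2 and Card9. Of 32851 promoter windows 28.3% held this 6-base word on either strand. An interferon-response type of word, GAAA and GAAA with any 2 bases between them and held by 3.44% of windows, and the AP-1-type word TGANTCA, held by 7.81%, were found in 0 of the members' windows. Promoter windows were found for 6 of the 7 members. These matches are descriptions of the reference sequence, since no binding or methylation was measured.

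The counts recovered from the deposited values totalled 1009717 to 1894819 over the genes of a sample, and the 8 negative control probes held 72 to 109 counts in sum. All pairs of replicates differed beyond counting noise (lowest chi-square over its degrees of freedom, 145.4). Cd274, which encodes PD-L1, had log2 values from 5.36 to 6.17 in the PD-L1-labelled samples and from 5.32 to 7.43 in those labelled empty plasmid, and the groups overlapped. Its mean was lower in the PD-L1-labelled samples (log2 difference -0.76 ± 0.59, SE; limma, adjusted p = 0.557). Where its probe lies relative to the plasmid's insert is not given, so it does not check the labels, and the groups are named by their labels throughout. All 15 measured hepatocyte genes had a lower mean in the PD-L1-labelled samples, with overlapping samples. Of all tested genes, 59.9% had a lower mean. The mean log2 value of this hepatocyte list was 5.37, 4.19 and 8.75 in PD-L1-labelled samples 1 to 3 and 7.69, 11.92 and 9.97 in empty-labelled samples 1 to 3. All 12 macrophage or monocyte genes lay above the background limit described below, as did 3 of 10 T cell genes, 1 of 7 B cell genes, 3 of 7 neutrophil genes and 0 of 5 dendritic cell genes. In bulk tumor RNA, fewer cells of a type and less RNA per cell cannot be told apart.

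Of the 7 members, 4 stood above background and were tested: Nlrp3, Casp1, Nod1 and Ripk2. A gene was tested when its mean over the 6 samples reached a limit 2 SD above the average negative control, 4.66 on the log2 scale, and 541 of 750 genes did. Pycard, Nod2 and Card9 lay under that limit. Values are log2 values as deposited, and each difference subtracts the mean of the empty-labelled samples from that of the PD-L1-labelled samples.

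**Figure D1:**
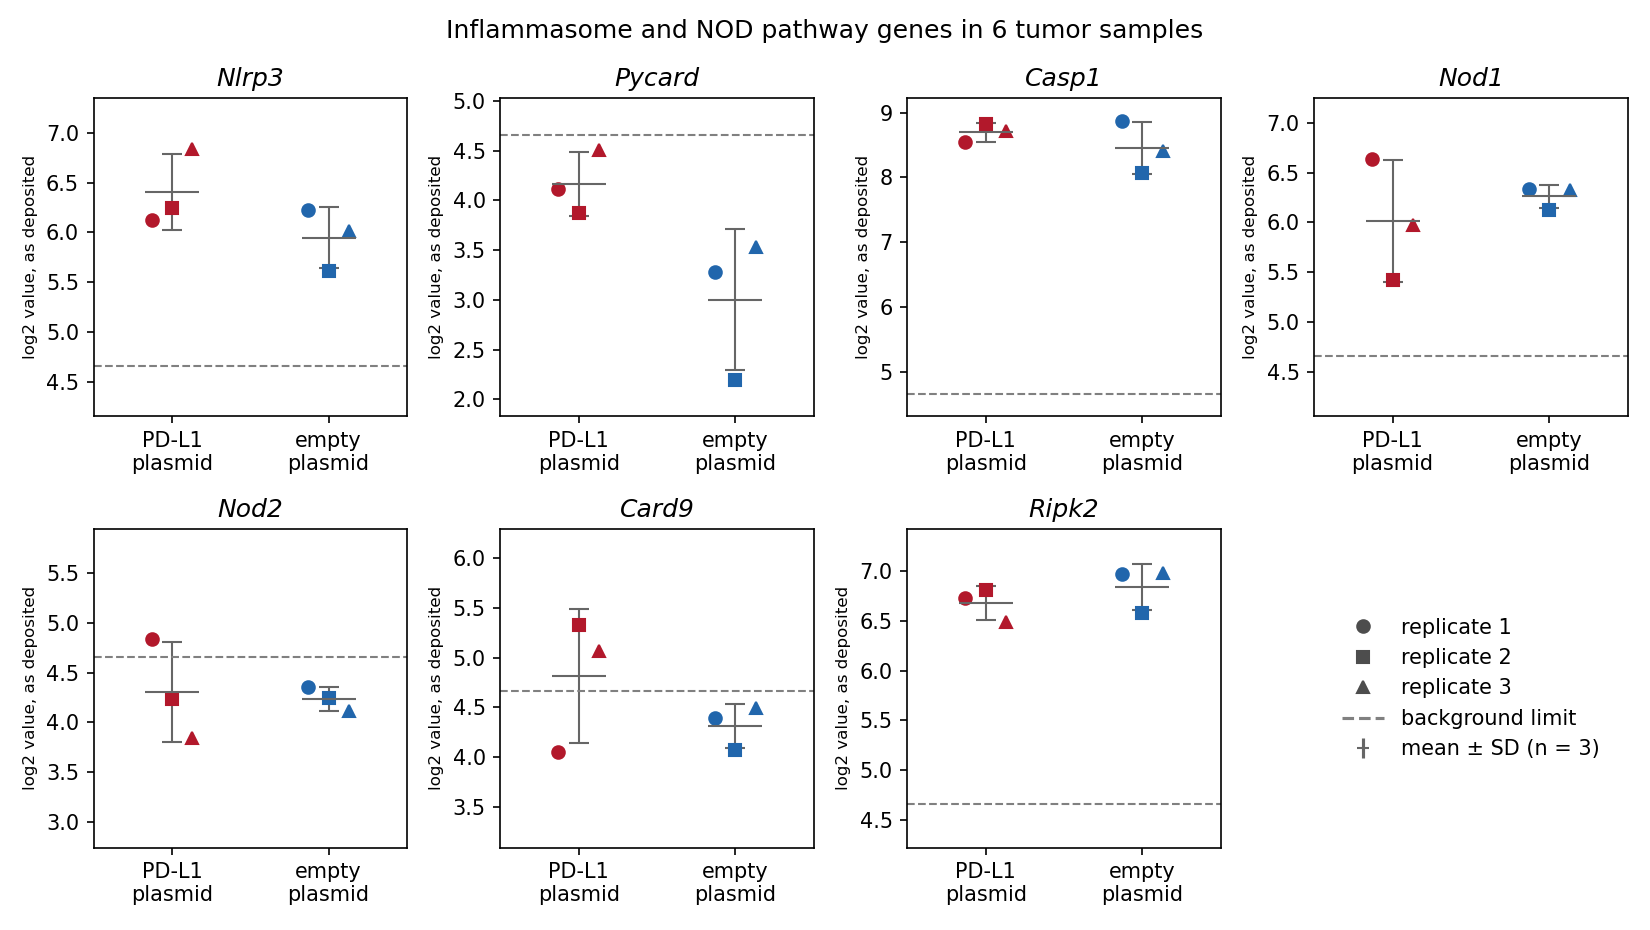
Log2 values of the 7 members in each sample (y axis) by labelled group (x axis); symbols are replicates 1 to 3, horizontal bars the group means, error bars the SD (n = 3) and dashed lines the background limit of 4.66. All panels but that of Pycard show groups that overlap.

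Nlrp3, the sensor, was measured above background in all 6 samples. Its log2 values were 6.12, 6.25 and 6.84 in PD-L1-labelled samples 1 to 3 and 6.22, 5.61 and 6.01 in empty-labelled samples 1 to 3. PD-L1-labelled sample 3 was the highest sample, empty-labelled sample 2 was the lowest, and the groups overlapped. The means were 6.40 ± 0.38 and 5.95 ± 0.31 (SD, n = 3 each), which put the difference at 0.46 ± 0.34 (SE), 95% interval -0.37 to 1.28 (limma, adjusted p = 0.555). On the linear scale this was a ratio of 1.37 with an interval from 0.775 to 2.43. Without PD-L1-labelled sample 3 the log2 difference was 0.24, and without empty-labelled sample 2 it was 0.29. In counts, the lowest sample held 44, with an exact 95% Poisson interval from 32.0 to 59.1, and the highest held 137, with an interval from 115.0 to 162.0. These intervals cover counting error only.

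Casp1, for the protease, had a smaller range over the samples than Nlrp3. Its log2 values were 8.54, 8.83 and 8.72 in PD-L1-labelled samples 1 to 3 and 8.87, 8.07 and 8.41 in empty-labelled samples 1 to 3. The highest and the lowest sample both belonged to the group labelled empty plasmid. The means were 8.70 ± 0.14 and 8.45 ± 0.40 (SD, n = 3 each), and the difference was 0.24 ± 0.29 (SE) with a 95% interval from -0.45 to 0.94 (limma, adjusted p = 0.692). As a ratio this was 1.18, with an interval from 0.731 to 1.92. Without empty-labelled sample 2 the log2 difference was 0.054. The range of Casp1 over the 6 samples was 0.80, and 16.8% of tested genes had a smaller one.

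Pycard, for the adaptor, was the 1 member of 7 whose groups did not overlap, and it lay under the background limit in all 6 samples. Across all 750 genes 18.8% had groups that did not overlap, 9.6% with the PD-L1-labelled samples higher. Among the 209 genes under the limit these shares were 20.1% and 12.4%. The log2 values of Pycard were 4.12, 3.87 and 4.51 in PD-L1-labelled samples 1 to 3 and 3.28, 2.197 and 3.53 in empty-labelled samples 1 to 3. The means were 4.16 ± 0.32 and 3.002 ± 0.71 (SD, n = 3 each; two-sided exact permutation p = 0.1, the smallest that 3 against 3 samples allow), 1.16 apart. With all 750 genes tested the adjusted p of limma was 0.3. In counts, Pycard held 23, 17 and 27 in PD-L1-labelled samples 1 to 3 and 16, 4 and 22 in empty-labelled samples 1 to 3, so that the counts themselves overlapped. The highest negative control held 19, 25 and 18 counts in the former samples and 17, 23 and 21 in the latter, and Pycard exceeded it in 3 of 6 samples. Measured as the distance above each sample's own mean negative control, the log2 values of the groups overlapped too, with 0.55 in PD-L1-labelled sample 2 and 0.85 in empty-labelled sample 3. Both groups lay under the limit, so the distance between their means is not a measured fold.

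**Figure D2:**
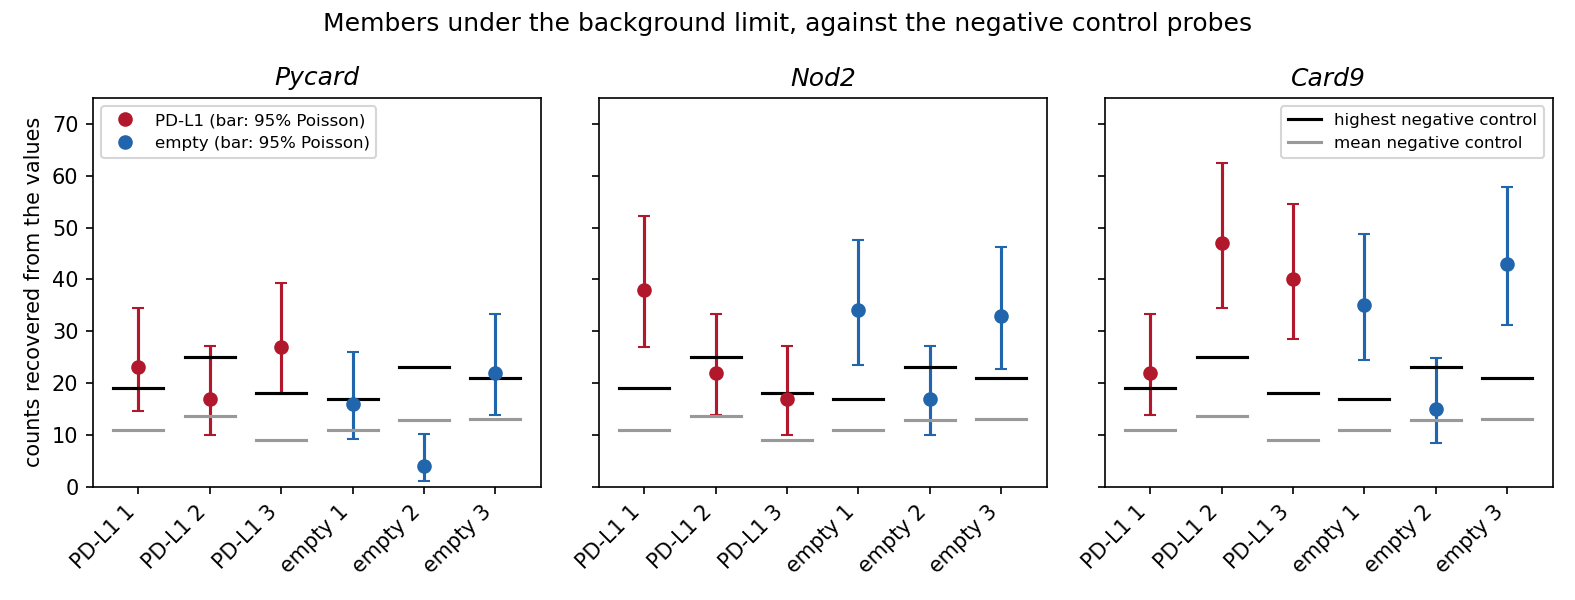
Counts recovered from the values (y axis) for the 3 members under the background limit in each sample (x axis), with exact 95% Poisson intervals; black lines mark the highest and grey lines the mean negative control probe of that sample. Pycard exceeded the highest negative control in 3 of 6 samples, Nod2 in 3 and Card9 in 5.

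The 3 inflammasome members shared their lowest sample, empty-labelled sample 2. In that sample the gene counts were the fewest, 1009717, and the mean negative control was the highest, 3.63 (log2). Measured above each sample's own mean negative control, Nod2, Card9 and Ripk2 were lowest there too. That sample also had the highest hepatocyte list mean, 11.92, the lowest macrophage or monocyte list mean, 9.53 against 9.65 to 11.08 in the others, and a low value of Ptprc, the leukocyte gene CD45. Ptprc stood at 8.44 there and at 8.38 to 9.61 in the others. Of the 12 macrophage or monocyte genes 11 had a higher mean in the PD-L1-labelled samples, and 1 had groups that did not overlap. Over all tested genes, 40.1% had a higher mean and 18.3% had groups that did not overlap. The summed level (log2) was 14.89 to 15.71 against 14.30 to 14.90 for this list, and 8.92 to 13.74 against 12.94 to 16.68 for the hepatocyte list. The part of tissue composition in the values of Nlrp3, Casp1 and Pycard was not tested.

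Nod1, the NOD sensor with wide expression, varied more within the group labelled PD-L1 than within the other. Its log2 values were 6.64, 5.42 and 5.97 in PD-L1-labelled samples 1 to 3 and 6.33, 6.13 and 6.32 in empty-labelled samples 1 to 3. The PD-L1-labelled samples held both the highest and the lowest value, and all 3 empty-labelled samples lay between them. The means were 6.01 ± 0.61 and 6.26 ± 0.12 (SD, n = 3 each), which put the difference at -0.25 ± 0.38 (SE), 95% interval -1.17 to 0.67 (limma, adjusted p = 0.762). The ratio was 0.840, with an interval from 0.444 to 1.59. Its direction rested on single samples, since the log2 difference was 0.045 without PD-L1-labelled sample 2 and -0.57 without PD-L1-labelled sample 1. The mean of the 4 epithelial genes Epcam, Cdh1, Muc1 and Msln had the same highest and lowest sample as Nod1. It was 10.51, 6.204 and 7.22 in PD-L1-labelled samples 1 to 3, against 6.65 to 7.38 in the other group. In PD-L1-labelled sample 3 it lay within the range of the other group, while Nod1 lay below that group. Between groups it was 7.98 against 7.03, opposite in direction to Nod1, with 3 of the 4 genes higher and 1 lower. The summed level (log2) of this list was 11.17 to 12.92 against 9.26 to 10.07, with the lowest of the former in sample 3, unlike Nod1. All 4 genes lay above the limit by their mean over the 6 samples, and their part in the values of Nod1 was not tested.

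Nod2, the sensor of muramyl dipeptide, lay under the background limit in 5 of 6 samples. Its log2 values were 4.84, 4.24 and 3.84 in PD-L1-labelled samples 1 to 3 and 4.35, 4.25 and 4.11 in empty-labelled samples 1 to 3. The means, 4.31 ± 0.50 and 4.24 ± 0.12 (SD, n = 3 each), were 0.070 apart, and the groups overlapped (exact permutation p = 0.9). It held 17 to 38 counts a sample and exceeded the highest negative control in 3 of 6 samples.

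Ripk2, for the kinase that serves both NOD sensors, had the smallest range of the 7 members. Its log2 values were 6.73, 6.81 and 6.48 in PD-L1-labelled samples 1 to 3 and 6.97, 6.58 and 6.98 in empty-labelled samples 1 to 3. The lowest sample was labelled PD-L1 and the highest 2 were labelled empty plasmid, with overlap between the groups. The whole range over 6 samples was 0.49, and only 3.33% of tested genes had a smaller one. The means were 6.68 ± 0.17 and 6.84 ± 0.23 (SD, n = 3 each), which put the difference at -0.16 ± 0.29 (SE), 95% interval -0.85 to 0.52 (limma, adjusted p = 0.803). As a ratio this was 0.892, with an interval from 0.555 to 1.44. With samples centred on their medians, the log2 difference was -0.0086.

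Card9, the adaptor downstream of C-type lectin receptors, stood just under the background limit, with a mean of 4.57 over the 6 samples. Its log2 values were 4.05, 5.33 and 5.07 in PD-L1-labelled samples 1 to 3 and 4.39, 4.07 and 4.49 in empty-labelled samples 1 to 3. PD-L1-labelled samples 2 and 3 were the 2 samples above the limit, while PD-L1-labelled sample 1 was the lowest of all, so the groups overlapped. The means were 4.82 ± 0.67 and 4.32 ± 0.22 (SD, n = 3 each), 0.50 apart (exact permutation p = 0.4). Leaving out PD-L1-labelled sample 1 made this 0.88, and leaving out PD-L1-labelled sample 2 made it 0.25. With the limit computed from linear values, Card9 was tested, with an adjusted p of 0.613 in limma.

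None of the 4 tested members passed, and neither did any other gene. Of 541 tested genes 0 (0.0%) reached an adjusted p under 0.05 in limma, and 0 did in limma's voom on the recovered counts. At an unadjusted p under 0.05, limma gave 92 genes (17.0% of those tested, 7.21% higher and 9.8% lower in the PD-L1-labelled samples), voom gave 83, and 0 members were among the 92. The median log2 difference over all tested genes was -0.12. Sample medians were apart by -0.16 between groups, so that centring on them moved each member's difference up by that amount, without changing the direction of any member.

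**Figure D3:**
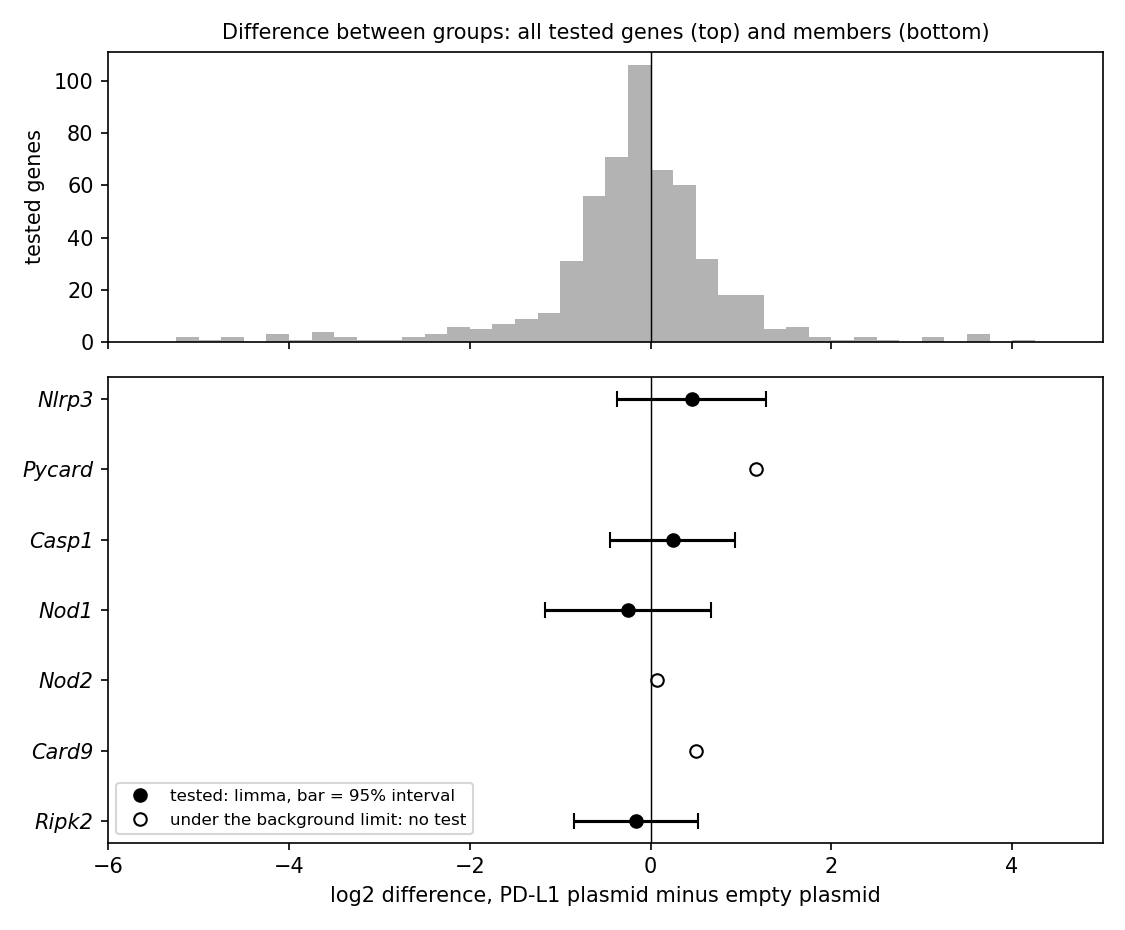
Top, number of the 541 tested genes (y axis) by log2 difference, PD-L1 minus empty plasmid (x axis); bottom, the 7 members on the same axis, filled points with 95% intervals for the 4 tested members and open points for the 3 under the background limit. All 4 intervals include 0, and the median of all tested genes was -0.12.

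The other genes of these pathways were taken from 5 lists, of which 58 of 71 measured genes were tested, and 0 passed in either direction. Among the inflammasome products and the interleukin-1 family, 7 of 10 tested genes had a higher mean and 3 a lower mean among the PD-L1-labelled samples. Over all tested genes, 40.1% had a higher mean. The median log2 difference of this list was 0.095 against -0.12 over all tested genes. Il1b, the cytokine matured by caspase-1, stood at 6.86, 6.38 and 9.31 in PD-L1-labelled samples 1 to 3 and at 9.45, 7.38 and 7.999 in empty-labelled samples 1 to 3. The groups overlapped, and the difference of -0.76 ± 0.88 (SE) had an adjusted p of 0.692 in limma. It ranged from -1.65 without PD-L1-labelled sample 3 to -0.17 without empty-labelled sample 1. Il18, the other cytokine that caspase-1 matures, differed by 0.0069 ± 0.48. Il1r1, the signalling receptor of IL-1, had all 3 PD-L1-labelled samples below the others, with means of 9.18 ± 0.33 and 9.96 ± 0.41 (SD, n = 3 each; limma, adjusted p = 0.291). Il1a, for a cytokine that needs no cut by caspase-1 to act, had means of 3.61 ± 0.56 and 4.79 ± 0.37 and no overlap between groups, but its mean over the 6 samples lay under the background limit. Groups did not overlap in 18.3% of tested genes and in 20.1% of genes under the limit. Il1b, Il18 and Il1a were named after their values were seen.

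Among other NLR and inflammasome genes, 4 of 9 tested genes had a higher and 5 a lower mean, the median of the differences being -0.016. Ddx58, for the RNA sensor RIG-I, had the smallest p. It stood at 8.12, 8.05 and 8.004 in PD-L1-labelled samples 1 to 3 and at 8.87, 8.64 and 8.85 in empty-labelled samples 1 to 3. All 3 former samples lay below the latter, a difference of -0.73 ± 0.23 (SE; limma, adjusted p = 0.256). Over all tested genes, 18.3% had groups that did not overlap. The unadjusted p of Ddx58 in limma was 0.017, but 0.062 with the replicate number as a block and 0.073 with rescaling to the reference genes. Txnip, for a thioredoxin-binding protein known to bind NLRP3, was chosen once values were known and had a difference of 1.08 with an adjusted p of 0.381.

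The list for the routes from RIPK2 to NF-κB and MAP kinases also held Birc5, Atg5, Atg16l1, Irf3 and Irf7. Of its 26 tested genes, 17 had a lower mean among the PD-L1-labelled samples and 9 a higher one. The median of the differences was -0.068. Over all tested genes, 324 of 541 (59.9%) had a lower mean and 217 a higher one. Traf3, for a ubiquitin ligase that restrains noncanonical NF-κB signalling and serves interferon induction, had means of 6.97 ± 0.50 and 8.19 ± 0.33 (SD, n = 3 each). Its difference was -1.23 ± 0.36 (SE; limma, adjusted p = 0.251). Irf7, a transcription factor of interferon induction, differed by -0.89 ± 0.32 (adjusted p = 0.272). The kinase genes Mapk14, for p38α, and Map2k2, for MEK2, each differed by -0.60 (adjusted p = 0.291 for both). In each of these 4 genes the PD-L1-labelled samples all lay below the others, while 18.3% of tested genes had groups that did not overlap. Each of the 4 had an unadjusted p under 0.05, as 9.8% of tested genes had in the lower direction. Irf7, Mapk14 and Map2k2 no longer had one with samples centred on their medians, nor with the replicate number as a block.

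The partners of CARD9 had differences of both signs, and the differences of its upstream receptors had opposite signs. Of 8 tested genes 5 had a higher and 3 a lower mean, with a median log2 difference of 0.28. Clec4n, for the lectin receptor dectin-2, stood at 9.11, 9.79 and 10.37 in PD-L1-labelled samples 1 to 3 and at 7.70, 7.37 and 7.43 in empty-labelled samples 1 to 3. Clec7a, for dectin-1, stood at 6.08, 6.02 and 7.87 in PD-L1-labelled samples 1 to 3 and at 8.50, 7.96 and 7.87 in empty-labelled samples 1 to 3. Clec4n was higher in all 3 PD-L1-labelled samples, while Clec7a was lowest in PD-L1-labelled samples 1 and 2 and met the other group at sample 3. Over all tested genes, 18.3% had groups that did not overlap. The differences were 2.26 ± 0.36 for Clec4n (SE; limma, adjusted p = 0.103) and -1.45 ± 0.56 for Clec7a (adjusted p = 0.291), and neither passed. Bcl10, for the adaptor that CARD9 engages, had a difference of 0.53 (adjusted p = 0.322) and was likewise chosen once values were known.

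Of 16 cytokine genes that these routes are known to induce, 11 lay under the background limit, Tnf and Il6 among them, so 5 were tested. Of these, 2 had a higher and 3 a lower mean, and the highest difference was that of Cxcl5, which encodes a chemokine for neutrophils, with 1.59 (limma, adjusted p = 0.392), named after its value was seen. Ccl5, which encodes a chemokine for lymphocytes, had means of 5.07 ± 0.15 and 6.86 ± 0.96 (SD, n = 3 each), and its difference was -1.78 ± 0.51 (SE; limma, adjusted p = 0.251). Of the 10 T cell genes, 7 had a lower mean in the PD-L1-labelled samples, 3 of them without overlap, and 7 of the 10 lay under the limit. Across all 750 genes 18.8% had groups that did not overlap. The summed level (log2) of that list was 7.51 to 8.08 against 7.89 to 9.37, and its part in the values of Ccl5 was not tested.

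**Figure D4:**
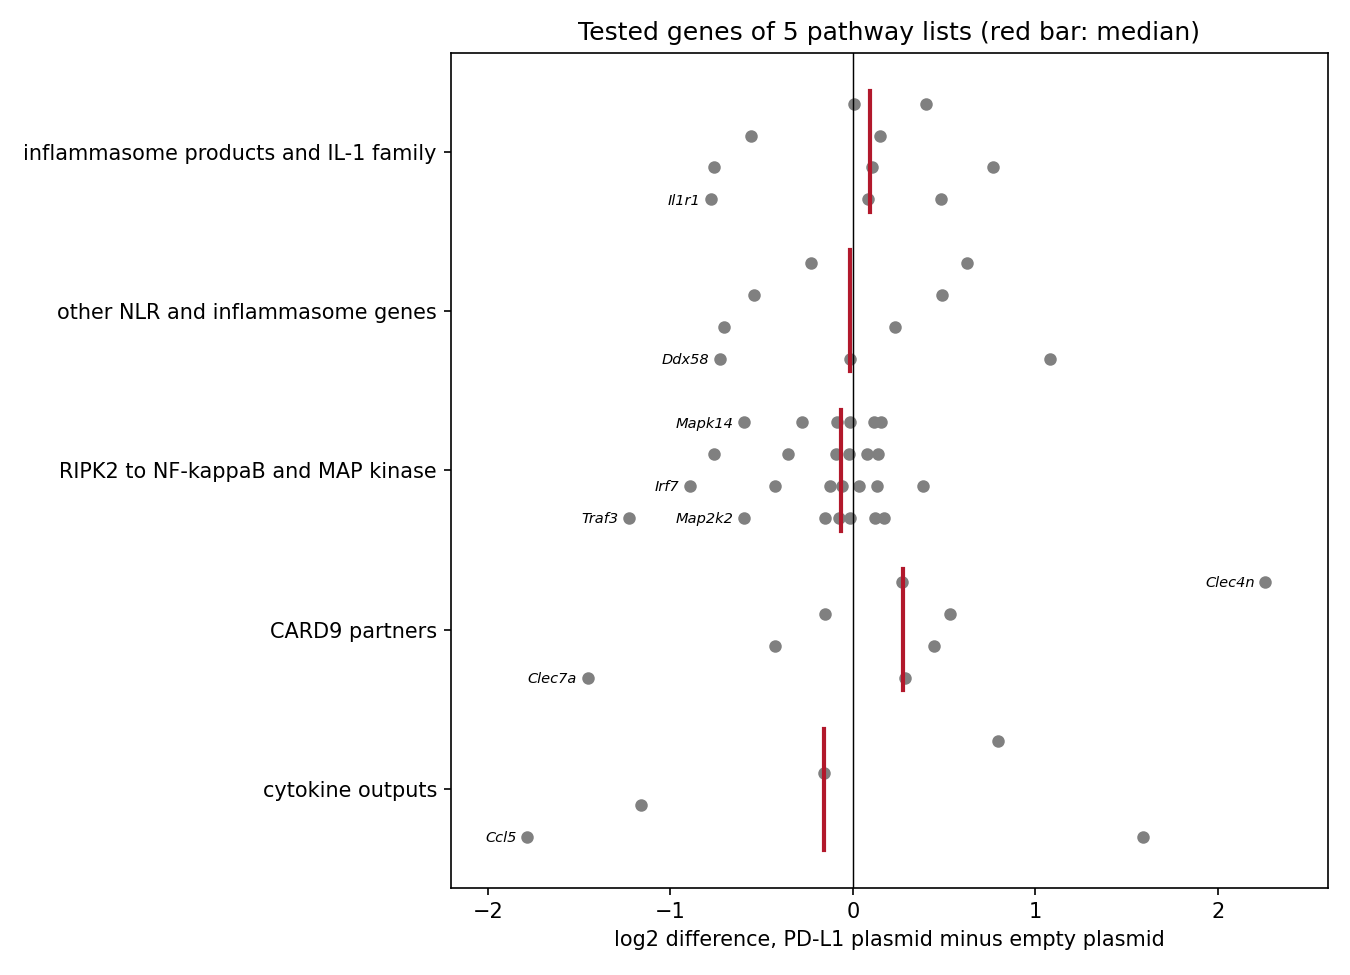
Log2 difference, PD-L1 minus empty plasmid (x axis), of the tested genes of 5 pathway lists (y axis, spread vertically for legibility); each point is a gene, red bars are list medians, and named genes have an unadjusted p under 0.05. Clec4n at 2.26 and Clec7a at -1.45, both receptors upstream of CARD9, lie at opposite ends of their list.

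The tested genes whose values most resembled each tested member differed between members. Pearson's r of log2 values over the 6 samples is given as a description of samples that share tissue makeup and scaling. Casp1 was most like Pik3cg, for a phosphoinositide kinase subunit of leukocytes (r = 0.945), and C3ar1, for a myeloid receptor of complement C3a (r = 0.935). With its 2 most distant samples left out, r was 0.960 and 0.949. Ripk2 was most like Inpp5d, for the leukocyte phosphatase SHIP1 (r = 0.959, and 0.980 without the 2 most distant samples), and Pecam1, for the adhesion molecule CD31 of endothelium and leukocytes (r = 0.944, and 0.857 without them). All 6 endothelial genes measured, Pecam1 among them, lay above the limit and had a lower mean in the PD-L1-labelled samples, 4 of them without overlap. Of all tested genes, 59.9% had a lower mean, and 18.3% had groups that did not overlap. The summed level (log2) of this list was 10.03 to 10.52 against 10.39 to 11.26, and its part in the values of Ripk2 was not tested.

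Nod1 was most like the epithelial genes Cdh1, for E-cadherin (r = 0.948), and Epcam (r = 0.877). Cdh1 stood at 9.44, 4.77 and 7.26 in PD-L1-labelled samples 1 to 3 and at 7.32, 7.86 and 7.79 in empty-labelled samples 1 to 3. Without PD-L1-labelled samples 1 and 2, the highest and lowest samples of Nod1, r fell to 0.272 for Cdh1 and 0.526 for Epcam. By rank over all 6 samples, Spearman's rho was 0.771 for Cdh1 and 0.943 for Epcam. In PD-L1-labelled sample 2 Epcam stood at 3.37, under the background limit. Nlrp3 was most like Ncr1, a natural killer cell receptor gene (r = 0.913). Without PD-L1-labelled sample 3 and empty-labelled sample 2, r was -0.085 for this gene. Nlrp3 and Casp1, both lowest in empty-labelled sample 2, had r = 0.727 with each other, which was not computed without that sample. Casp1 and Ripk2 had r = 0.307, and Nod1 and Ripk2 had r = 0.181. It was negative for Nlrp3 with Nod1 (-0.242) and with Ripk2 (-0.249), and for Casp1 with Nod1 (-0.302).

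**Figure D5:**
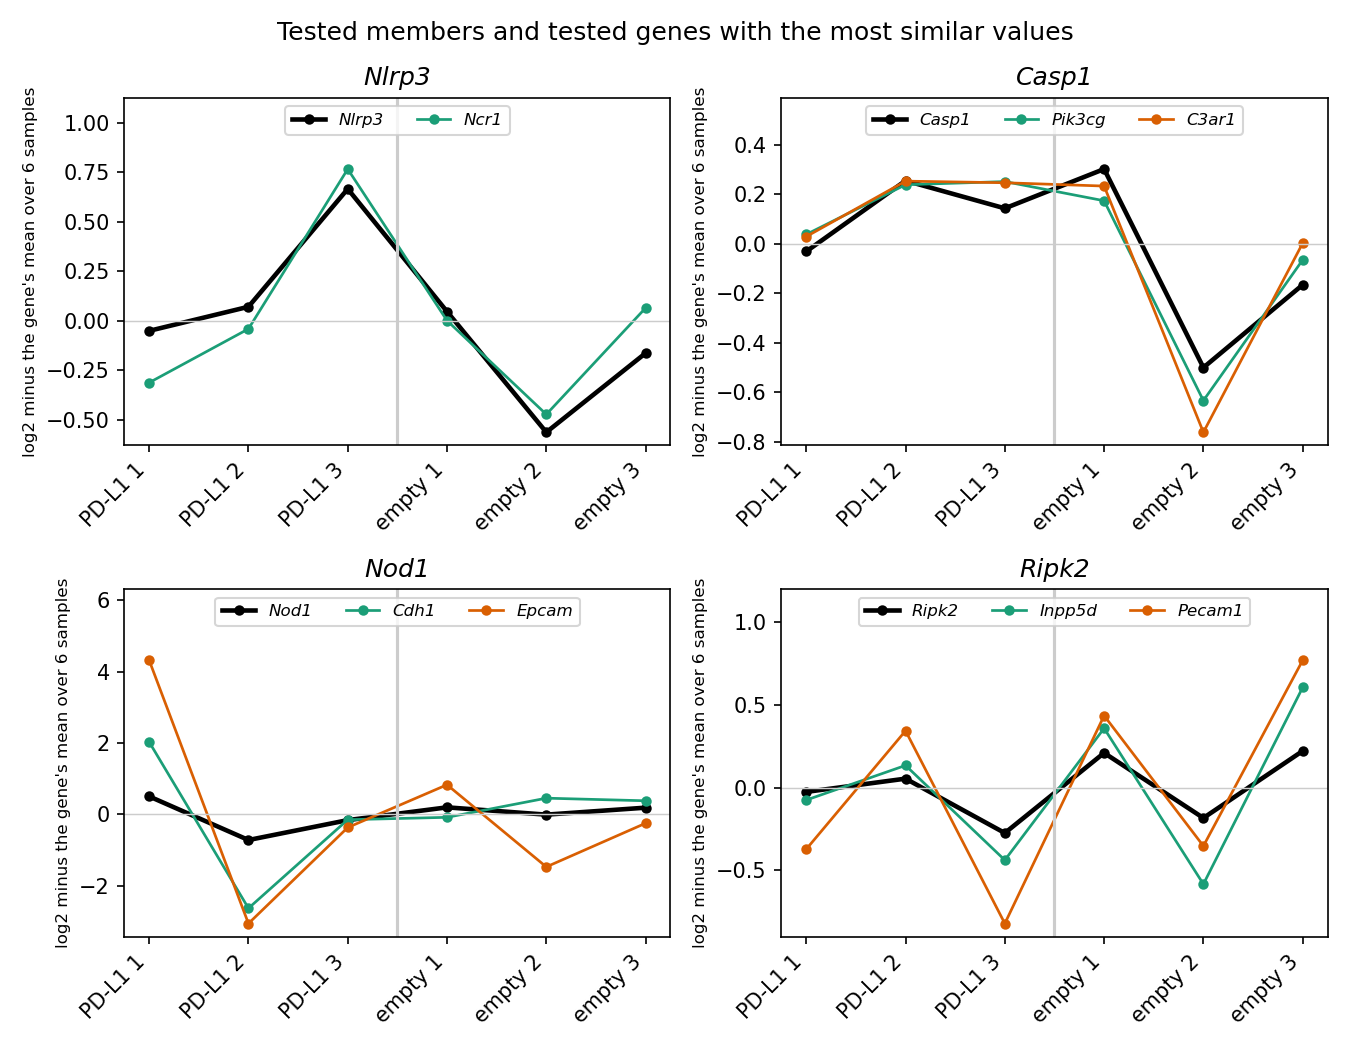
Log2 value minus the gene's own mean over the 6 samples (y axis) in each sample (x axis) for the 4 tested members (black) and tested genes with the highest Pearson's r to each (coloured; 1 for Nlrp3 and 2 for each of the others). Casp1, Pik3cg and C3ar1 share their lowest sample, empty-labelled sample 2, and Nod1, Cdh1 and Epcam share the highest and lowest sample, both labelled PD-L1.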

How the data were processed

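Total RNA of 6 tumor samples, 3 per labelled group, was read by NanoString nCounter without a dye, according to the labels. Samples were grouped by their titles. The values deposited by the authors are on the log2 scale. They had been scaled by 1 factor per sample, whose basis and software are not given in the sources used here. Raising 2 to a value gave a whole number times that factor plus a constant of 0.158 in each sample, and 100% of 4704 values came out whole within 0.02. The factors ran from 0.519 to 1.11 and were used to recover counts. A larger factor raises the value that 1 count stands for, which matters most for genes near the negative controls. Of the 2 tables, the second gave the same values for its 770 genes.

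Groups were compared with limma 3.58.1 in R 4.3.3 (lmFit, eBayes with a mean-variance trend, Benjamini-Hochberg over the 541 genes above background at 0.05) on the values as deposited, with the group as the only term. The 7 members and the pathway and marker lists were chosen with earlier results of these data known. Pathway genes were named when their unadjusted p was under 0.05 or, failing that, as the 2 with the smallest p of a list, and likeness was given for the 2 tested genes with the highest Pearson's r, except that 1 such gene of Nlrp3 is not reported here. Exact permutation tests were two-sided. The fit was tested on simulated data, with planted differences larger than those of the members and gene SDs capped at their median. That test does not show how the fit performs on differences as small as the members'. Alternatives covered scaling, trend, background limit, added constant, subtraction of negative controls, the other table, voom with TMM factors, leaving out each sample, and a block for replicate number. All 7 members' deposited accessions matched RefSeq genes of the same symbol, in the table for GRCm38.p6. No genome build is named for the values, so the coordinates given are those of the RefSeq promoter windows alone. Tables and plots came from python 3.11.15 (scipy 1.17.1, pandas 2.3.3, numpy 2.4.6, matplotlib 3.10.9). The same replicate numbers occur in both groups. For deviations from the group mean, same-numbered samples had r of 0.27, -0.20 and -0.13 for numbers 1 to 3. Samples of different numbers had r from -0.39 to 0.46. Deviations sum to 0 within each group, so these r depend on one another and cannot exclude pairing. The main fit did not treat samples as pairs, and the block for replicate number was an alternative.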

Additional observations from a re-analysis of the deposited data

How the results depend on the processing

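Under all 16 alternatives, Nlrp3, Casp1, Pycard and Card9 kept a higher mean and Ripk2 a lower mean in the PD-L1-labelled samples, and none of the 4 tested members passed under any of them. Changing the trend, the background limit or the table, or adding the replicate block, could not change a difference of means. Nod1 turned to 0.045 without PD-L1-labelled sample 2. The difference of Nod2 ranged from -0.19 to 0.30 when single samples were left out. The difference of Pycard was 0.61 with a constant of 10 added and 1.61 with the negative controls subtracted, and that of Card9 was 1.18 with them subtracted. Leaving out single samples gave 0.24 to 0.60 for Nlrp3, 0.76 to 1.43 for Pycard, 0.054 to 0.46 for Casp1, -0.57 to 0.045 for Nod1, 0.25 to 0.88 for Card9 and -0.297 to -0.068 for Ripk2. Il18 ranged from -0.32 to 0.41 when single samples were left out, and turned to -0.32, -0.23 and -0.16 without PD-L1-labelled sample 2, empty-labelled sample 1 and empty-labelled sample 3. Of the 9 pathway genes named for an unadjusted p under 0.05, 4 kept one with samples centred on their medians, 6 with rescaling to the reference genes, 7 in voom, and 3 to 6 when single samples were left out.

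The count of genes past the threshold became 1 when samples were rescaled to the reference genes (F13a1, for a coagulation factor subunit and named after its value was seen, adjusted p = 0.0448 in limma against 0.103 as deposited), and stayed 0 under the other alternatives. The count at an unadjusted p under 0.05, 92, ranged from 38 (without PD-L1-labelled sample 2) to 92 when single samples were left out, and was 53 without empty-labelled sample 3. The cause was not tested. The replicate block changed no call at the adjusted threshold: 0 genes passed, 80 had an unadjusted p under 0.05, 4 of the 9 named pathway genes among them, and the adjusted p was 0.634 for Nlrp3, 0.785 for Casp1, 0.792 for Nod1 and 0.860 for Ripk2. Signal over background limits what can be said of Pycard, Nod2 and Card9, at 4 to 47 counts a sample.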
